A study of Mus musculus with 6 samples.

Results

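The intracellular lipid binding proteins studied here are the fatty acid binding proteins Fabp1, Fabp2, Fabp4, Fabp5 and Fabp6, the retinol binding protein Rbp2, and the retinoic acid binding proteins Crabp1 and Crabp2. Every probe set that the platform annotation assigns to one of these symbols was taken, which gave 13 probe sets for 8 genes, out of 22626 probe sets and 12393 genes on the array. Total RNA of the mouse stomach antrum, the mucus- and gastrin-producing lower part of the stomach, had been hybridised to Affymetrix expression arrays. The groups were C57/BL6 (here BL6), Beige and Satin mice, with 2 arrays each, and the titles name BL6 and Beige as controls. The Satin coat mutation lies in Foxq1, a forkhead transcription factor, and the Beige mutation in Lyst, a gene of lysosome-related organelles. The sources used here do not give age, sex, treatment, the genetic background of Satin and Beige, or whether an array holds RNA of 1 animal. A p-value therefore reflects how far these arrays spread, part of which may be technical.

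Proteins of this family are small and cytosolic, and each folds into a barrel that encloses a fatty acid, a bile acid or a retinoid. They carry these poorly soluble ligands between membranes, enzymes and nuclear receptors. In the gut, Fabp1, Fabp2 and Rbp2 are known from the absorptive cells of the small intestine, where they take up dietary fatty acids and vitamin A, and Fabp6 from the ileum, where bile acids are recovered. Fabp4 is known from adipocytes, endothelial cells and macrophages, Fabp5 from epidermis and many other epithelia, and Crabp1 and Crabp2 from tissues that respond to retinoic acid.

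The antral arrays carried a clear signal for part of the family. In Satin, the signal of Fabp2 lay near the median signal of the array, above the filter for dim genes. It was far higher on every BL6 and Beige array. Rbp2 was lower in Satin by a much smaller amount, and Fabp5 by less again. Fabp1 stood out on 1 Satin array and Fabp4 on 1 BL6 array, in both cases together with markers of another cell type. The choice of these genes was made with the Satin values known, so their Satin differences are given as a description, with no test. BL6 and Beige were compared by test.

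Levels are given as log2(signal + 32) after quantile normalization, a scale on which a signal of 0 lies at 5. The 30% of probe sets with the lowest means, below 5.74 on this scale, were left out of the tests. A difference understates the change of a dim gene on this scale, and levels of different probe sets cannot be set against each other. Of the 8 genes, 5 passed the filter (Fabp1, Fabp2, Fabp4, Fabp5 and Rbp2), and 8 of the 13 probe sets did. The array is a bulk measurement, in which fewer cells of a type and less RNA per cell cannot be told apart. Median signals lay between 38.2 and 49.5 on the control arrays and were 74.15 and 58.6 on the Satin arrays. The Gapdh control signal from the 5′ end, as a ratio to that from the 3′ end, drops when RNA is degraded; it was 0.526 for BL6 replicate 1 and between 0.988 and 1.18 for the other 5 arrays. The 10 measured markers listed for gastric antrum epithelium had a mean log2 level between 12.21 and 12.87, so these transcripts were abundant on every array. Whether the list separates the antrum from the rest of the stomach was not examined. Foxq1 itself was at 10.13 and 10.17 for BL6, 9.88 and 9.38 for Beige, and 10.46 and 10.41 for Satin; whether its probe set covers the mutated stretch was not examined, so it does not check the strain labels. Markers of pancreatic acinar cells summed to a signal of 86049 on BL6 replicate 2, 45802 on Satin replicate 2 and 19104 on Beige replicate 2, against 10737 to 11846 on the replicate 1 arrays. Of these markers, Clps was near the top of the scale on all 6 arrays, between 13.15 and 13.27. Cpa1 was near the floor on the replicate 1 arrays, at 5.09 to 5.34, and at 9.92 to 12.92 on the replicate 2 arrays. The sums therefore understate how far markers such as Cpa1 differed between the arrays.

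The promoters of the gut-type members are shown because their transcripts are the ones that differ most between strains or arrays. Each line gives the 250 bases before the transcript start, 5′ to 3′ on the gene's strand, from RefSeq on the mouse assembly GRCm38.p6. The stretches are chr3:122894822-122895071 for Fabp2, chr9:98490287-98490536 for Rbp2 and chr6:71199629-71199878 for Fabp1, all on the plus strand. Capitals mark matches to any of the 8 motifs searched on both strands.
Fabp2: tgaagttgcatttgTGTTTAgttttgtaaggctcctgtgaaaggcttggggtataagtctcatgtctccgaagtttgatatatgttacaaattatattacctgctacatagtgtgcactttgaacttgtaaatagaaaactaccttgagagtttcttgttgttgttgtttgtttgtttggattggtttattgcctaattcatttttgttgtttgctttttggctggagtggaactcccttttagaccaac
Rbp2: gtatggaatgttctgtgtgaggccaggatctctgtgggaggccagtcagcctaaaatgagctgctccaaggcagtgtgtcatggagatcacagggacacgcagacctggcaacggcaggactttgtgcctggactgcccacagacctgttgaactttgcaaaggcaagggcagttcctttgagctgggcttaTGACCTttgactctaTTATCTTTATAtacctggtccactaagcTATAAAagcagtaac
Fabp1: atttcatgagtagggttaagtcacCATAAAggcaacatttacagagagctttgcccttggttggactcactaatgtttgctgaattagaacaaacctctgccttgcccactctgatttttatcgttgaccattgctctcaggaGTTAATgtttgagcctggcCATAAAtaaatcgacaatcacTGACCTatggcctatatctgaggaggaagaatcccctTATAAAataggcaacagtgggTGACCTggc
The motifs were TATAAA for the box that positions transcription, AGATAA for GATA factors, CAAAGTCCA for HNF4, GTTAAT for an HNF1 arm, TTTATG for CDX, AGGTCA for one arm of a nuclear receptor site, CCCCACCC for KLF and TGTTTA for the forkhead core. The forkhead core was added after the other 7, once the data had been seen. In windows of 250 bases before and 50 bases after the start, of 32851 promoters in the table, 13.6% held TATAAA, 11.2% AGATAA, 0.475% CAAAGTCCA and 7.1% GTTAAT. The CDX letters TTTATG were found in 11.9%, AGGTCA in 16.3%, CCCCACCC in 9.99% and TGTTTA in 13.4%.

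The Fabp2 window held 1 match, a TGTTTA that begins 236 bases before the start, and none of the other 7 motifs. The Rbp2 window held TATAAA 15 bases before the start and, on the opposite strand, at 38 bases, where it shares 1 base with an AGATAA at 43 bases. It also held an AGGTCA on the opposite strand at 58 bases. The Fabp1 window held TATAAA at 30 bases and GTTAAT at 107 bases, and on the opposite strand TTTATG at 226 and 88 bases and AGGTCA at 67 and 9 bases. Each of the matched letter strings occurs in 11.2% or more of all promoters, or in 7.1% for GTTAAT, and a match describes the letters only. Of the 8 members, 5 had an entry in the promoter table, and neither the Fabp6 nor the Crabp1 window is printed, since both genes were below the filter. The letters TGTTTA occurred in 2 of these 5 windows, those of Fabp2 and Fabp6.

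Fabp2, the intestinal fatty acid binding protein, is measured by 1 probe set. Its deposited signal was 1928 and 1394 for BL6, 2142 and 2410 for Beige, and 65.0 and 79.7 for Satin. The groups did not overlap: the lowest control signal was 17.5 times the highest Satin signal, and the mean control signal was 27.2 times the mean Satin signal. On the normalized log2 scale the levels were 11.34 and 10.70 for BL6, 11.22 and 11.11 for Beige, and 6.28 and 6.65 for Satin. The strain means were 11.02 ± 0.45 (SD, n = 2) for BL6, 11.16 ± 0.08 for Beige and 6.47 ± 0.27 for Satin. Both Satin levels stayed above the filter of 5.74.

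Satin minus the mean of both control strains was -4.62 ± 0.20 (SE) on the log2 scale for Fabp2, a 24.7-fold lower value of signal plus 32. Against Beige alone the difference was -4.70 ± 0.23, and against BL6 alone -4.55 ± 0.23; these comparisons share the Satin arrays. Among the 9395 genes tested it was the most negative difference of all. Over 17 other settings of the processing it ran from -4.91 to -3.84. In the same comparison 1.94% of all genes tested differed by more than 1 on the log2 scale, 12.7% had both Satin arrays below all 4 control arrays, and 1.44% passed an adjusted p of 0.05 (limma, Benjamini-Hochberg). The genes were chosen on this contrast, so nothing is read from their standing against these shares.

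**Figure D1:**
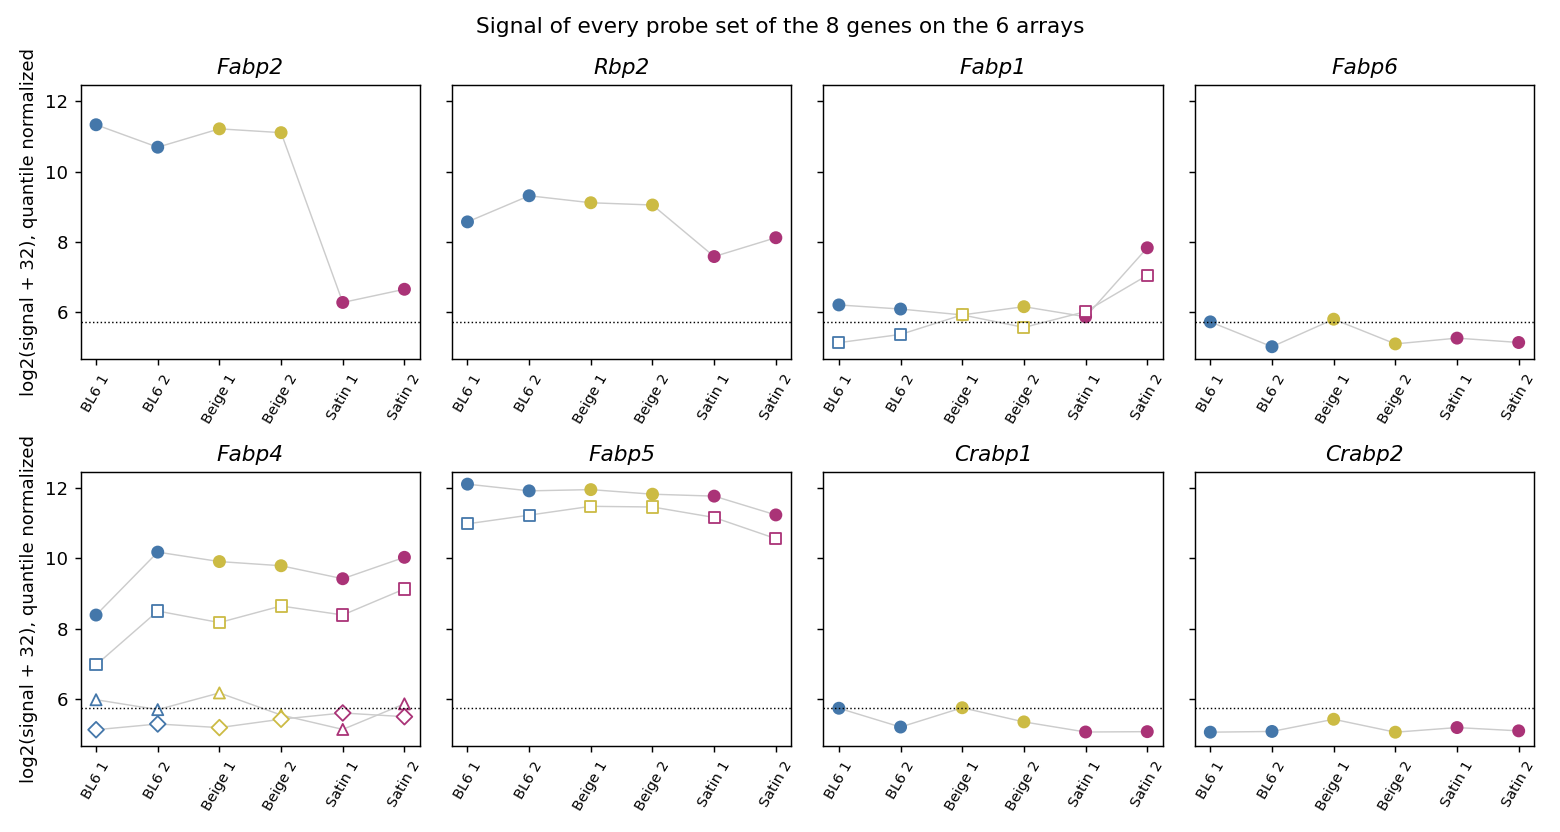
Log2(signal + 32) after quantile normalization (vertical axis) for every probe set of the 8 genes on the 6 arrays (horizontal axis; blue BL6, yellow Beige, magenta Satin). Filled circles are the probe set that stands for the gene, open symbols its other probe sets, and the dotted line is the filter at 5.74. Fabp2 lies between 10.70 and 11.34 on the control arrays and at 6.28 and 6.65 on the Satin arrays, while Fabp6, Crabp1 and Crabp2 stay near the filter or under it on all 6 arrays.

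Rbp2, the cellular retinol binding protein of enterocytes, binds retinol and retinal on their way to esterification, and it too has 1 probe set. The deposited signal was 276 and 486 for BL6, 443 and 555 for Beige, and 224 and 305 for Satin. As deposited, the groups overlapped, since BL6 replicate 1 was below Satin replicate 2. After quantile normalization the levels were 8.57 and 9.32 for BL6, 9.12 and 9.05 for Beige, and 7.59 and 8.12 for Satin. There both Satin arrays were below all 4 controls, as in 12.7% of all genes tested.

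The difference of Rbp2, Satin minus both controls, was -1.16 ± 0.23 on the log2 scale, or 2.24-fold lower. It was -1.23 ± 0.27 against Beige and -1.09 ± 0.27 against BL6, and it ranked 69 from the lowest among the 9395 genes. It depended on the scaling in size: -0.65 on the values as deposited and -0.59 after scaling on the hybridization controls, where the median of all genes was itself shifted by 0.43 and 0.48. It was below 0 under all 17 other settings. In order of level, Satin lay lowest, and BL6 (8.94 ± 0.53, SD, n = 2) and Beige (9.08 ± 0.05) did not differ beyond the spread of the BL6 pair.

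Fabp1, the liver fatty acid binding protein, which is made by hepatocytes and enterocytes, has 2 probe sets past the filter. The one with the higher mean had deposited signals of 39.3 and 25.9 for BL6, 28.5 and 35.9 for Beige, and 38.4 and 243 for Satin. The other read 3.0 and 7.2, 28.5 and 14.3, and 47.3 and 120 in the same order. Both probe sets were highest on Satin replicate 2. On Satin replicate 1 the first lay within the control range and the second above it.

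On the log2 scale the first Fabp1 probe set was at 6.21 and 6.09 for BL6, 5.93 and 6.16 for Beige, and 5.87 and 7.83 for Satin. Its difference, Satin minus both controls, was 0.76 ± 0.46 and rested on 1 array. It was -0.22 without Satin replicate 2 and 1.71 without Satin replicate 1. The second probe set gave 1.04 ± 0.34. Its levels were 5.14 and 5.37 for BL6, 5.93 and 5.57 for Beige, and 6.02 and 7.05 for Satin. Both its Satin levels were above all 4 controls, as in 11% of all genes tested, by 0.10 for replicate 1. Its mean was 5.25 for BL6, under the filter, and 5.75 for Beige, close to it. It thus passed the filter largely through Satin, and nothing is read from its difference. Markers of hepatocytes, a list chosen after the values of Fabp1 had been seen, were high on Satin replicate 2 too. Of 15 such markers measured, 14 were highest on Satin replicate 2, against 10.9% of all genes. Their summed signal was 4320 there and 425.8 to 685 on the other 5 arrays, and albumin (Alb) was at a log2 level of 10.61 there and 5.20 to 6.50 elsewhere.

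The first Fabp1 probe set followed the mean of the 10 hepatocyte markers past the filter. The gap between their log2 levels stayed between -0.13 and 0.05 on all 6 arrays. The second did not keep a steady gap: it was at 5.14 on BL6 replicate 1, 6.02 on Satin replicate 1 and 7.05 on Satin replicate 2. The marker mean there was 6.29, 5.82 and 7.83. Apoa2, 1 of the 10 markers, was at 5.24 to 6.18 on the controls and 5.33 on Satin replicate 1. At 8.57 on Satin replicate 2, it passed the filter through that array. Cyp3a11 and Cps1 of the list of intestinal epithelium markers and Apoc3 of the fat absorption list, genes that the liver expresses as well, were also highest on Satin replicate 2, at 9.08, 7.21 and 7.51. The part of cells other than those of the antrum in the Fabp1 signal was not tested.

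Fabp6, the bile acid binding protein of the ileum, was below the filter on its 1 probe set. Its deposited signals were 19.5 and 0.3 for BL6, 23.5 and 2.0 for Beige, and 8.5 and 3.5 for Satin, with overlapping groups. Satin minus both controls was -0.21 ± 0.27 on the log2 scale. At this signal the arrays could not show a difference between the strains.

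Fabp2 and Rbp2 are known from enterocytes, so their levels were set beside markers of intestinal epithelium. Of 32 such markers measured, 22 were tested, and they did not move with Fabp2. Their median difference, Satin minus both controls, was -0.03, with 10 above 0 and 12 below, beside -0.00 for all genes tested. Krt20, a keratin of differentiated gut and gastric surface cells, fell by 1.64 ± 0.21 in Satin (limma, adjusted p = 0.00722). It was the 1 marker of the 22 that passed, against 1.44% of all genes. Its call was lost under 4 of the 17 other settings: an adjusted p of 0.0671 without Beige replicate 2, 0.0879 without Beige replicate 1, 0.0625 without Satin replicate 1 and 0.0699 without the intensity trend. Gpa33, a glycoprotein of the intestinal surface, differed by -1.26 ± 0.34 (limma, adjusted p = 0.137).

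Single intestinal markers ranged widely in level. Of the 32 measured, 9 to 14 lay under the filter on any one array, and others were well above it on all 6: the brush border protein Vil1 was between 8.27 and 9.35, the aminopeptidase Anpep between 7.53 and 8.34, and the apolipoprotein Apoa1 between 9.97 and 11.22. The homeobox factors Cdx1 and Cdx2 were between 5.04 and 5.44, and lactase (Lct) between 5.35 and 6.41. Mttp, which loads lipid onto chylomicrons, was between 5.29 and 6.19. Apoa4, a chylomicron apolipoprotein, was at 5.72 on BL6 replicate 1 and between 7.11 and 8.36 on the other arrays, Satin included. Cdx2, Mttp, Vil1, Anpep and Apoa1, like Cyp3a11 and Cps1, were chosen after their values had been seen.

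The mean log2 level of the 22 markers was 7.21, 7.50, 7.31 and 7.35 on the control arrays and 7.14 and 7.62 on the Satin arrays, without an order between the groups. The mean on Satin replicate 2 includes Cyp3a11, at 9.08 there and 5.25 to 6.19 elsewhere, and Cps1, at 7.21 there and 5.25 to 6.31 elsewhere. Liver expresses both, so this mean may not follow intestinal epithelium alone. The summed signal of the 32 markers was 7740 to 12215 on the control arrays and 10114 and 12768 on the Satin arrays. Relative to the marker mean, Fabp2 went from between 3.20 and 4.12 on the control arrays to -0.87 and -0.97 on the Satin arrays. Rbp2 went from between 1.36 and 1.82 to 0.44 and 0.50. For both genes the difference between the strains was as large relative to these markers as without them, at -4.67 and -1.20.

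**Figure D2:**
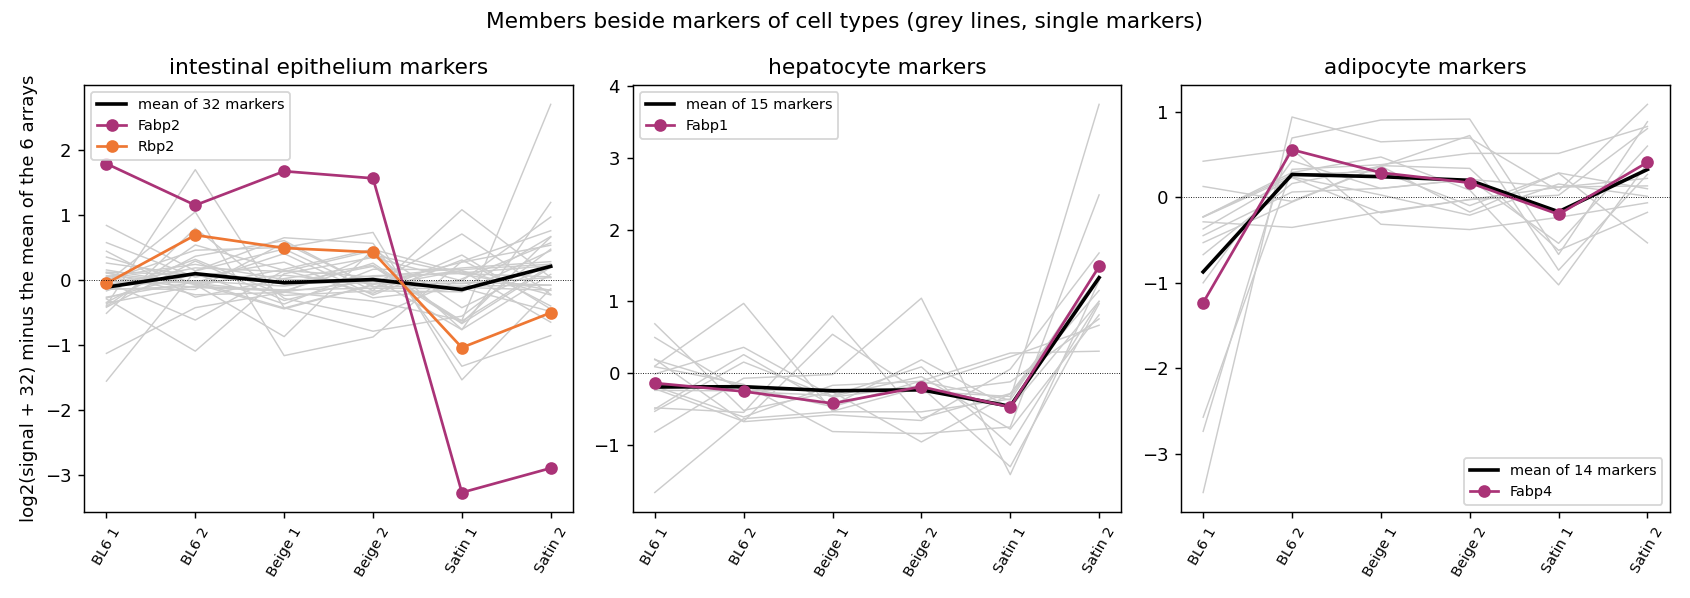
Log2(signal + 32) minus the mean of the 6 arrays (vertical axis) on each array, for single markers (grey), the mean of all measured markers of a cell type (black) and members of the family (coloured). The Fabp2 and Rbp2 lines leave the intestinal epithelium mean on the Satin arrays. The Fabp1 line, of its first probe set, lies close to the mean of the 15 hepatocyte markers, which peaks on Satin replicate 2. The Fabp4 line lies close to the mean of the 14 adipocyte markers, which is lowest on BL6 replicate 1.

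Fabp4, the adipocyte fatty acid binding protein, has 4 probe sets, of which 2 passed the filter. The one with the highest mean had deposited signals of 240 and 940 for BL6, 793 and 956 for Beige, and 880 and 1232 for Satin. The second read 79.9 and 263, 214 and 411, and 416 and 660 in the same order. BL6 replicate 1 was the lowest array on both, and otherwise the strains overlapped on the normalized scale. The 2 dim probe sets had signals of 2.8 to 39.4.

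The log2 levels of Fabp4 were 8.39 and 10.18 for BL6, 9.91 and 9.79 for Beige, and 9.42 and 10.03 for Satin. Satin minus both controls was 0.16 ± 0.40, and it was -0.29 without BL6 replicate 1. The second probe set gave 0.69 ± 0.41. On the first probe set the Beige levels lay between the 2 Satin levels. The Satin and Beige means (9.73 ± 0.43 and 9.85 ± 0.08, SD, n = 2 each) lay between the levels of the 2 BL6 arrays, whose mean was 9.28 ± 1.27.

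Several adipocyte markers were low on BL6 replicate 1 together with Fabp4. Of 14 measured, 7 were lowest on that array, against 21.9% of all genes, and their summed signal was 1439 there and 3638 to 5218 elsewhere. Adiponectin (Adipoq) was at a log2 level of 5.05 on that array and 7.12 to 8.70 on the others. Thrsp, a regulator of lipid synthesis, was at 5.05 against 7.95 to 8.45, and carbonic anhydrase Car3, chosen after its values had been seen, at 6.14 against 9.67 to 10.68. Leptin (Lep) was below the filter.

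The gap between Fabp4 and the mean of the 12 adipocyte markers past the filter stayed between 1.73 and 2.19 on all arrays. The mean of the 12 endothelial markers was between 6.57 and 6.71 and that of the 11 macrophage markers between 7.17 and 7.56, so neither had the low value of BL6 replicate 1. Of the 12 adipocyte markers, 0 were called in Satin against the controls, with 1 at an unadjusted p under 0.05 (limma), where 1.44% of all genes were called and 1180 of 9395 had such a p. The nearest were Pparg, the nuclear receptor of adipocyte differentiation, with -0.60 ± 0.17 (adjusted p = 0.152), and Thrsp with 1.01 ± 0.61 (adjusted p = 0.565). BL6 replicate 1 is also the array with the low Gapdh ratio of 0.526, and the part of fat tissue or RNA quality in its Fabp4 level was not tested.

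Among all genes tested, 1.44% were called and 1180 of 9395 had an unadjusted p under 0.05. The endothelial and macrophage lists also had 0 genes called, with 0 of 12 and 1 of 11 at such a p. Among them Tek, an endothelial receptor kinase, differed by -0.51 ± 0.25 (limma, adjusted p = 0.461) and Mrc1, the macrophage mannose receptor, by -0.57 ± 0.19 (limma, adjusted p = 0.226).

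Fabp5, the epidermal fatty acid binding protein, was bright on all arrays. Its first probe set had deposited signals of 3476 and 3651 for BL6, 3473 and 3958 for Beige, and 4072 and 2918 for Satin. As deposited, the strains overlapped, and the highest and the lowest of these 6 signals were both on Satin arrays. On the log2 scale the levels were 12.11 and 11.92, 11.96 and 11.83, and 11.77 and 11.24 in the same order. There both Satin arrays were below all controls, as in 12.7% of all genes tested, and replicate 1 lay 0.05 under the nearest control.

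Satin minus both controls was -0.45 ± 0.17 for Fabp5 on the log2 scale, or 1.37-fold lower. It was -0.19 without Satin replicate 2 and -0.72 without Satin replicate 1, and -0.08 on the values as deposited. The second probe set gave -0.43 ± 0.19, with levels of 10.98 and 11.23 for BL6, 11.48 and 11.46 for Beige, and 11.17 and 10.56 for Satin, where Satin replicate 1 lay within the control range. Of 13 markers of squamous forestomach epithelium past the filter, a cell type in which Fabp5 is known to be abundant, 0 were called, 2 had an unadjusted p under 0.05, and the median difference was -0.03. Among all genes tested, 1.44% were called and 1180 of 9395 had such a p. Sprr1a, a cornified envelope precursor, differed by -0.86 ± 0.21 (limma, adjusted p = 0.0892). The keratin Krt5 was between 5.27 and 6.62, Krt14 was below the filter, and Krt13 ran from 5.11 to 7.63 without an order by strain.

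Crabp1 and Crabp2, which bind retinoic acid in the cytosol, were both below the filter. Crabp1 had deposited signals of 20.0 and 3.7 for BL6, 21.3 and 8.8 for Beige, and 1.9 and 1.6 for Satin, so both Satin arrays were lowest, at levels near the floor. Its difference was -0.44 ± 0.22 on the log2 scale. Crabp2, which hands retinoic acid to its nuclear receptor, had signals of 1.0 to 9.2 on all arrays and a difference of -0.01 ± 0.16.

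BL6 and Beige were compared to show how far the strains titled as controls differ in this family. None of the 5 members tested passed: 0 of 5, in a comparison in which 0% of the 9395 genes passed (limma, Benjamini-Hochberg), with 483 genes at an unadjusted p under 0.05. Beige minus BL6 for Fabp2 was 0.15 (95% interval -0.37 to 0.66, limma adjusted p = 0.926). For Rbp2 it was 0.14 (-0.46 to 0.74, limma adjusted p = 0.948). At the main settings neither interval reaches the size of the Satin difference of the same gene. The genes were chosen on that difference, so nothing is read from this. After hybridization control scaling the Rbp2 differences were close in size, 0.54 for Beige minus BL6 and -0.59 for Satin minus both controls.

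Fabp5 had a narrower interval than Fabp2 and Rbp2, and Fabp1 and Fabp4 had wider ones. Fabp1 differed by -0.11 (-1.31 to 1.09, limma adjusted p = 0.984), Fabp5 by -0.13 (-0.57 to 0.32, limma adjusted p = 0.929) and Fabp4 by 0.57 (-0.48 to 1.61, limma adjusted p = 0.885). The Fabp4 value turned on BL6 replicate 1: it was -0.34 without it and 1.46 without BL6 replicate 2. For Rbp2 the value was -0.23 without BL6 replicate 1, and for Fabp2 it was -0.17 without BL6 replicate 2. Differences of the size of these intervals between the control strains cannot be seen with 2 arrays each.

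**Figure D3:**
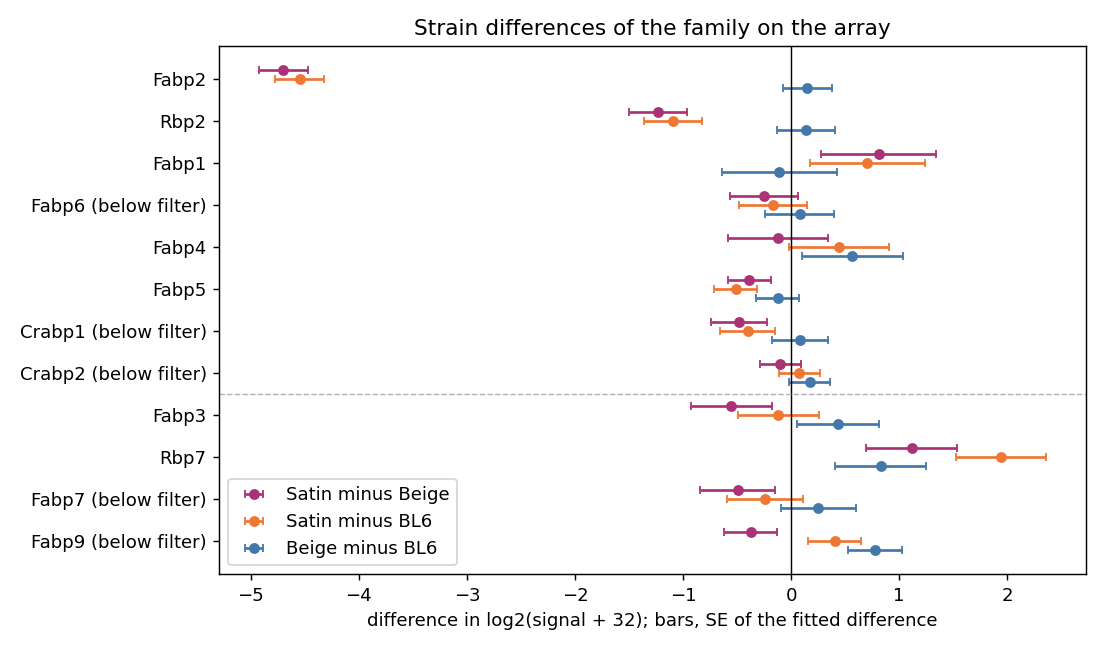
Fitted differences in log2(signal + 32) (horizontal axis) for the 8 genes and, under the dashed line, the 4 other family members on the array; points are Satin minus Beige (magenta), Satin minus BL6 (orange) and Beige minus BL6 (blue), and bars are the SE of the fitted difference. Fabp2 lies near -4.70 and -4.55 in the Satin comparisons, which share the Satin arrays, and at 0.15 between the control strains, while Rbp7, at 1.11 and 1.94, and Fabp1, at 0.81 and 0.70, lie above 0 in both Satin comparisons.

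Of 7 other genes of the family that were listed, 4 had a probe set and 2 passed the filter. Rbp7, a cellular retinol binding protein known from adipose tissue and endothelium, had deposited signals of 1.9 and 42.7 for BL6, 72.4 and 49.8 for Beige, and 274 and 203 for Satin. Both Satin arrays were above all 4 controls, as in 11% of all genes tested. The log2 levels were 5.08 and 6.49, 6.82 and 6.41, and 7.84 and 7.62 in the same order.

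Satin minus both controls was 1.53 ± 0.36 for Rbp7 and did not pass over all genes (limma, adjusted p = 0.0853). It passed under 7 of 17 other settings, among them the values as deposited (adjusted p = 0.000418), BL6 replicate 1 left out (0.0448) and BL6 replicate 2 left out (0.00622), and the adjusted p reached 0.553 without Satin replicate 1. Beige minus BL6 was 0.83 ± 0.42 (limma, adjusted p = 0.865), and it was 0.13 without BL6 replicate 1. The adipocyte marker mean on the Satin arrays was 7.51 and 8.01, inside its control range of 6.66 to 8.01, and the endothelial mean 6.64 and 6.57, below its control range of 6.66 to 6.71. The other family member tested, Fabp3 of heart and muscle, differed by -0.34 ± 0.33 (limma, adjusted p = 0.750). Fabp7 and Fabp9 were below the filter, with signals of 0.7 to 36.2 over their probe sets.

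Retinoid enzymes are the partners of Rbp2, Rbp7 and the Crabp proteins. Of 18 genes of retinoid metabolism and reception tested, 1 rose and 1 fell in Satin, where 0.436% of all genes tested rose and 1% fell. At an unadjusted p under 0.05 there were 6 of the 18, against 1180 of all 9395 genes, and the median difference was -0.05. Adh7, an alcohol dehydrogenase of the upper digestive tract that oxidises retinol, was at 9.60 and 9.998 for BL6, 9.96 and 9.85 for Beige, and 8.11 and 7.52 for Satin. It fell by 2.04 ± 0.20 (limma, adjusted p = 0.00124), and it passed under all 17 other settings. Aldh1a1, which makes retinoic acid from retinal, was at 10.70 and 10.30, 10.62 and 10.55, and 11.54 and 11.27, and rose by 0.86 ± 0.16 (limma, adjusted p = 0.0329).

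The call of Aldh1a1 held under 10 of the 17 settings. It was lost whenever a Beige or a Satin array was left out: the adjusted p was 0.187 without Beige replicate 1, 0.177 without Beige replicate 2, 0.352 without Satin replicate 1 and 0.0702 without Satin replicate 2. For Adh7 and Aldh1a1 alike, the Satin arrays did not overlap with the controls. Of all genes tested, 12.7% had both Satin arrays below all 4 controls and 11% had both above.

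Genes that handle the fatty acids and bile acids carried by Fabp1, Fabp2 and Fabp6 had no calls. Of 17 genes of fat absorption and chylomicron assembly, 0 were called and 4 had an unadjusted p under 0.05, beside 1.44% called and 1180 of 9395 at such a p over all genes, with a median of -0.08. Apoc3, an apolipoprotein of liver and intestine, differed by 1.58 ± 0.37 (limma, adjusted p = 0.0829), and Dgat1, which completes triglyceride synthesis, by -0.48 ± 0.14 (limma, adjusted p = 0.159). Apoc3 was between 5.12 and 5.64 on the control arrays, under the filter, and at 6.45 and 7.51 on the Satin arrays. It therefore passed the filter only through Satin, and nothing is read from its p. Its highest level was on Satin replicate 2, as for the hepatocyte markers.

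Of 18 genes of fatty acid oxidation and PPAR targets, 0 were called and 2 had an unadjusted p under 0.05. The median was -0.14, with 13 below 0 and 5 above. Among all genes tested, 1.44% were called and 1180 of 9395 had such a p. Acadm, a mitochondrial acyl-CoA dehydrogenase, differed by 0.62 ± 0.16 (limma, adjusted p = 0.121) and Pdk4, a kinase that restrains glucose oxidation, by -0.82 ± 0.23 (limma, adjusted p = 0.152).

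Of 7 genes of bile acid transport and signalling, 0 were called and 1 had an unadjusted p under 0.05, with a median of -0.12. Among all genes tested, 1.44% were called and 1180 of 9395 had such a p. Abcc3, an exporter of organic anions, differed by 0.73 ± 0.16 (limma, adjusted p = 0.0667) and Nr0b2, a corepressor induced by bile acids, by 0.74 ± 0.33 (limma, adjusted p = 0.404).

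Transcription factors of gut epithelium were also measured. Of 11 gut epithelial factors tested, 0 were called and 2 had an unadjusted p under 0.05, with a median of 0.13. Among all genes tested, 1.44% were called and 1180 of 9395 had such a p. Foxa1, a forkhead factor, differed by 0.64 ± 0.15 (limma, adjusted p = 0.0732) and Klf5, a factor of proliferating gut epithelium, by 0.38 ± 0.14 (limma, adjusted p = 0.280). Between Beige and BL6, 0 genes of any of these lists were called.

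The genes whose profile over the 6 arrays lay nearest to a member were found by the root mean square difference between log2 profiles, each centred on its own mean. For Fabp2 the nearest of all genes tested was Muc5ac, the mucin of gastric surface mucous cells, at 0.18, where the centred Fabp2 profile itself has a root mean square of 2.19. Muc5ac was at 13.11 and 12.66 for BL6, 12.95 and 12.94 for Beige, and 8.56 and 8.58 for Satin. It differed between Satin and both controls by -4.35, next to -4.62 for Fabp2. The next genes were much farther away, Cybrd1, a duodenal iron reductase, at 0.89 and Rpgrip1 at 0.96. On the control arrays Muc5ac lay near the top of the scale, where the antrum markers Gkn1 and Gkn2 were at 13.15 to 13.29 on all 6 arrays. Whether the Muc5ac difference is compressed there was not examined.

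For Rbp2 the nearest were Pdia6, a protein disulfide isomerase of the endoplasmic reticulum, at 0.14, the esterase Aadac at 0.15 and Plppr2 at 0.16, against 0.61 for the Rbp2 profile itself. For Fabp1 they were Mup3, a major urinary protein of liver, at 0.22, Pglyrp1 at 0.24 and Cldn7 at 0.28, against 0.68. Probe sets of the major urinary protein family can cross-hybridise, so the name Mup3 is uncertain. For Fabp4 they were Il1f6 at 0.11, Gatad2b at 0.16 and Ascc1 at 0.18, against 0.60. For Fabp5 they included Asb13 at 0.05 and Atp1b2 at 0.06, against 0.28. These distances describe 6 arrays and carry no test.

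**Figure D4:**
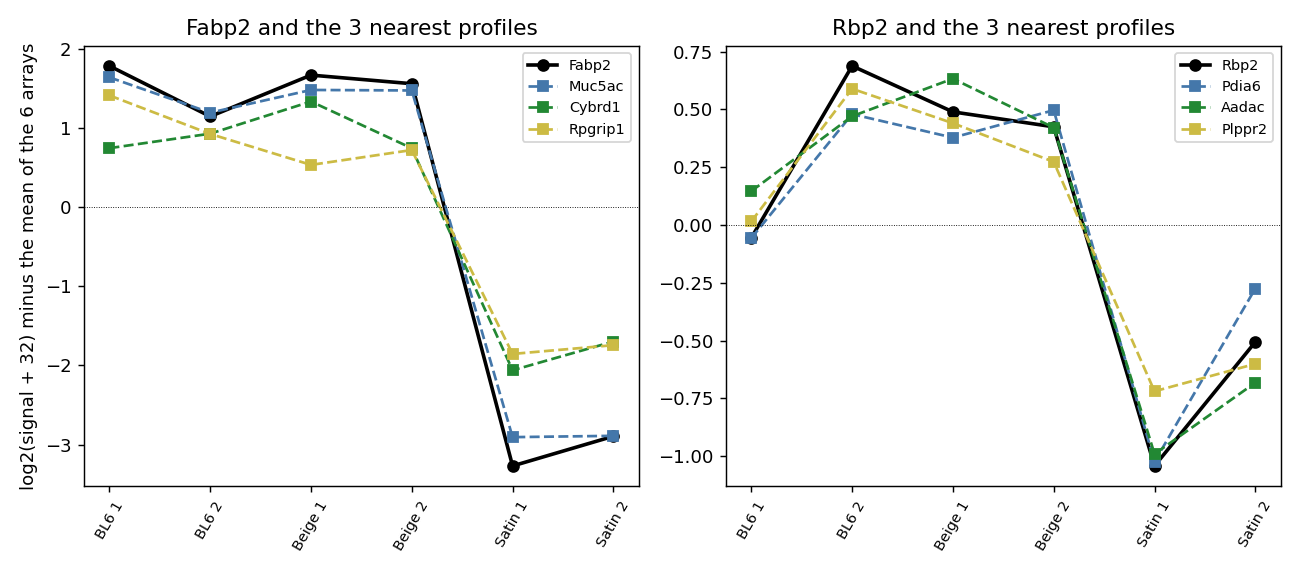
Log2(signal + 32) minus the gene's own mean over the 6 arrays (vertical axis) on each array, for Fabp2 (left, black) and Rbp2 (right, black) with the 3 nearest profiles of each (coloured dashed lines). The vertical scales differ. Muc5ac stays close to Fabp2 on all 6 arrays, at a root mean square difference of 0.18, while the 3 nearest profiles of Rbp2 lie at 0.14 to 0.16.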

How the data were processed

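The deposited values are array intensities on a linear scale in a table of 22690 probe sets. The sources used here name no algorithm, scaling or array batch. For the log2 scale, 32 was added to each signal, all probe sets were quantile normalized together, and the 64 control probe sets were then dropped. Of the others, 20380 carry 1 gene symbol, 691 several and 1555 none. The brightest probe set stood for a gene, and the lowest 30% of probe sets by mean were left out, leaving 9395 of 12393 genes. Strains were compared with limma 3.58.1 in R 4.3.3 (intensity trend, two-sided, 6 arrays, strain as factor, 3 residual degrees of freedom and 9.24 after moderation), with Benjamini-Hochberg adjustment over all genes and a threshold of 0.05. The fit was tested on simulated data. Satin minus controls means Satin minus the mean of BL6 and Beige.

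The members and lists were chosen with earlier results of these data known. The text names every family member, the called genes of a list (up to 4, or the 2 with the smallest p), the first 3 measured markers of marker lists where described, and the 3 nearest profiles of a member; 1 such profile named for a microRNA is not named. Other settings varied the pseudocount, scaling, filter, probe set choice, limma options, a replicate block and the arrays included.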

Additional observations from a re-analysis of the deposited data

How the results depend on the processing

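The differences of Fabp2, Rbp2 and Fabp5 between Satin and the controls were below 0 under all 17 other settings. For Fabp5 the difference was only -0.08 ± 0.19 (SE) on the values as deposited and -0.02 ± 0.17 after hybridization control scaling, smaller than its SE. Genes with an absolute difference over 1 among the members numbered 2, and 1 with a pseudocount of 100, with median centring and without BL6 replicate 2. The 2 were Fabp2 and Rbp2, but Fabp2 and Fabp1 on the values as deposited (Fabp1 1.12), after hybridization control scaling (1.17) and without Satin replicate 1 (1.71), where Rbp2 was -0.65, -0.59 and -0.89. For Satin against both controls 135 genes were called: 1531 on the values as deposited (96% higher), 2086 after hybridization control scaling (97.3% higher), 92 after median centring (50% higher, against 30.4%), 36 without the intensity trend, 225 with robust limma, 91 without the filter on dim genes, 92 with probe sets averaged and 29 to 293 when 1 array was left out (293 without BL6 replicate 2, 34 and 29 without Beige replicate 1 and 2, 40 and 84 without Satin replicate 1 and 2). The deposited and control-scaled values have a median difference over all genes of 0.43 and 0.48. For Beige against BL6, 3 genes were called as deposited, 4 after control scaling, and 0 to 9 when 1 array was left out (5 without BL6 replicate 1, 9 without BL6 replicate 2).

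Signs turned for small differences. Fabp3 in Satin was 0.17 as deposited and 0.22 after control scaling, and ran from -0.72 to 0.042 when 1 array was left out. Between Beige and BL6, Fabp1 was 0.14 after control scaling and 0.19 with probe sets averaged, and Fabp5 was 0.057 as deposited, 0.20 after control scaling and 0.12 with probe sets averaged. With 1 array left out, this difference ran from -0.22 to 0.0085 for Fabp1, -0.17 to 0.47 for Fabp2, -0.34 to 1.46 for Fabp4, -0.23 to 0.51 for Rbp2 and -0.11 to 0.98 for Fabp3. The causes were not tested.

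Same-numbered arrays deviated together by correlations of 0.12, 0.27 and 0.19 across genes, with only 2 numbers, and the labels do not say what a number marks. With the replicate block, 123 genes were called in Satin and 0 between Beige and BL6. Signals near the floor limit what can be said of Fabp6, Crabp1 and Crabp2.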

Other observations

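Fibroblast markers had 9 of 10 differences below 0 in Satin against both controls, with a median of -0.30 beside -0.00 for all genes tested. Of these 10, 0 were called and 4 had an unadjusted p under 0.05 (limma), beside 1.44% called and 1180 of 9395 at such a p over all genes. Of the 10, 7 were highest on BL6 replicate 1, the array with the low Gapdh ratio, as were 25.4% of all genes, and the part of that array in the differences was not tested. Dpt, dermatopontin of the dermal and gut matrix, was at 10.55 and 10.004 for BL6, 10.20 and 10.55 for Beige, and 9.51 and 9.67 for Satin, a difference of -0.74 ± 0.18 (limma, adjusted p = 0.102). Col1a2, a chain of type I collagen, differed by -0.41 ± 0.15 (limma, adjusted p = 0.272).

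Of the 10 gastric antrum markers, 2 were called in Satin, against 1.44% of all genes tested. Muc5ac fell by 4.35 ± 0.15 (limma, adjusted p = 1.26e-06), and the hormone gastrin (Gast) fell by 1.41 ± 0.23 (limma, adjusted p = 0.0185). The median of the 10 was 0.04, with 6 above 0. Of the 10 pancreatic acinar markers 0 were called, with 0 at an unadjusted p under 0.05, and Cela1, an elastase, differed by -0.60 ± 0.59 (limma, adjusted p = 0.752).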
